A study of Caenorhabditis elegans with 2 samples.

Results

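The genes described here are 10 regulators of the entry into S phase in Caenorhabditis elegans, out of 19973 protein-coding genes on the nuclear chromosomes: the kinase inhibitors cki-1 and cki-2, the cyclins cyd-1 and cye-1, the kinases cdk-4 and cdk-2, the pocket protein lin-35, the factors efl-1 and dpl-1, and the F-box protein lin-23. They were chosen by function and by the signal, rank and position of peaks in these same data, so the peaks are given as a description, without a test. NHR-2 is a nuclear hormone receptor, and its binding was measured by ChIP-seq in whole embryos of mixed stages and pooled sexes, with biological replicates 1 and 2 forming the 2 libraries of a single group. Both libraries came from strain OP99, which has the unc-119(ed3) mutation on chromosome III and the integrated transgene wgIs99, described in the labels as an insertion targeting nhr-2. The labels speak of an eGFP fusion of NHR-2 and also name nhr-2 as the antibody, which leaves the antibody unsettled. Neither the promoter that drives the transgene, nor its copy number, nor the worm DNA it holds is stated in the labels, and no library from animals without it, nor the control that the labels name, was analysed here. Whole embryos were used, so the cells in which a site was occupied cannot be told apart.

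Cells commit to DNA replication at the end of G1. Cyclin D with CDK4, and then cyclin E with CDK2, phosphorylate pocket proteins of the retinoblastoma family and so relieve the repression of genes that E2F and DP factors control. Inhibitors of the Cip/Kip family bind these kinases and hold cells in G1, and SCF ubiquitin ligases remove cell cycle proteins by degradation. The early divisions of the worm embryo run without a clear G1, and cells leave the cycle as the embryo differentiates. In the worm, CKI-1 is needed for that arrest, CYD-1 and CDK-4 for later divisions, and LIN-35 and LIN-23 restrain division.

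The sequences at the summits of these peaks come first. They are 151 bases of the forward strand of WBcel235 centred on the summit (RefSeq assembly), shown for the strongest peak of cki-1 and cki-2, cyd-1, cdk-4 and lin-23 and for the other peaks at cki-1 and cyd-1 that hold AGGTCA, the core word of many nuclear receptor sites. Capitals mark the word AGGTCA, the repeat GAGAGA, and the E-box words CAGGTG and, in the cdk-4 sequence, CAGCTG, on either strand. The cki-1 promoter peak and the strongest peak between cki-1 and cki-2 are on chromosome II, and TGACCT in them is AGGTCA on the reverse strand.
cki-1 promoter, chrII:7810912-7811062: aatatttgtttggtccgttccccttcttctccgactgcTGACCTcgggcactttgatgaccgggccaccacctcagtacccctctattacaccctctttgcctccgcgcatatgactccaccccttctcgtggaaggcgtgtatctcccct
strongest between cki-1 and cki-2, chrII:7813362-7813512: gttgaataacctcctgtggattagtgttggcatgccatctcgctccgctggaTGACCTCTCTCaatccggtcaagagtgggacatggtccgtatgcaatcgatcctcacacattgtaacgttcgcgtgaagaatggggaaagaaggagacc
cyd-1 upstream, chrII:12978793-12978943: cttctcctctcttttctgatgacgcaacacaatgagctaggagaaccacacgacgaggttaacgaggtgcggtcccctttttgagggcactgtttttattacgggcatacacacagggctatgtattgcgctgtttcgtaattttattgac
cyd-1 intron, chrII:12985951-12986101: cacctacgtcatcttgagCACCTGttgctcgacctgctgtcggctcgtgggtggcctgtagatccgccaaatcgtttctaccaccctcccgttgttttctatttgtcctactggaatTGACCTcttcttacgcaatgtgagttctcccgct
lin-23 upstream, chrII:6370291-6370441: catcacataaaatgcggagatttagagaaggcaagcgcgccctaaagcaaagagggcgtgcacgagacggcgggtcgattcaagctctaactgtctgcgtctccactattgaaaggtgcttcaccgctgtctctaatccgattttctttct
cdk-4 promoter, chrX:13519164-13519314: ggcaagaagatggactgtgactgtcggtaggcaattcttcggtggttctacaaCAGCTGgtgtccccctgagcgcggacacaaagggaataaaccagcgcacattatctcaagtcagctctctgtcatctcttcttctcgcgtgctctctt

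Peaks at these genes were counted in a window of the gene body and 5 kb on either side. A peak here is an entry of the list thresholded by the irreproducible discovery rate, which compares the ranks of regions in replicates. Each peak has a signal, the authors' own enrichment score, and a rank by it among all 1861 thresholded peaks, of which 18 were mitochondrial. Weaker regions are entries of the 30000-region candidate lists of the series or of a replicate. Of the 10 genes, 8 had a peak in the window and 2, efl-1 and dpl-1, had none; over all protein-coding genes, 3143 of 19973 (15.7%) had a peak in the window. In all there were 19 distinct peaks of the 1843 nuclear ones. Their signals ran from 66.9 to 1638 with a median of 142, against a median of 82.96 over all nuclear peaks, and 15 of the 19 were above that median. The peak of 1638, the only one in the lin-35 window, lay in an intron of nhr-2. Without it 7 genes had a peak, and 18 peaks with a median signal of 139 remained, the strongest at 615. A promoter summit, meaning one between 1000 bp before the annotated 5′ end and 200 bp after it, was present in 6 of the 10 genes (cki-1, cki-2, cdk-4, cye-1, cdk-2 and lin-23), against 831 of all genes (4.16%). With 5 or more peaks were 3 of the 10, cki-1, cki-2 and cyd-1, against 38 of all genes (0.19%). Counted by the nearest 5′ end of a protein-coding gene, cki-1 had 3 peaks, cki-2 had 4 and cyd-1 had 3, so that 0 of the 10 had as many as 5. The genes were chosen from these values, and nothing is read from the differences. Windows were close in length, with a median of 13.7 kb for the 10 genes and 12.0 kb for all genes, but a longer gene has a longer window: that of cyd-1 was 22.5 kb.

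**Figure D1:**
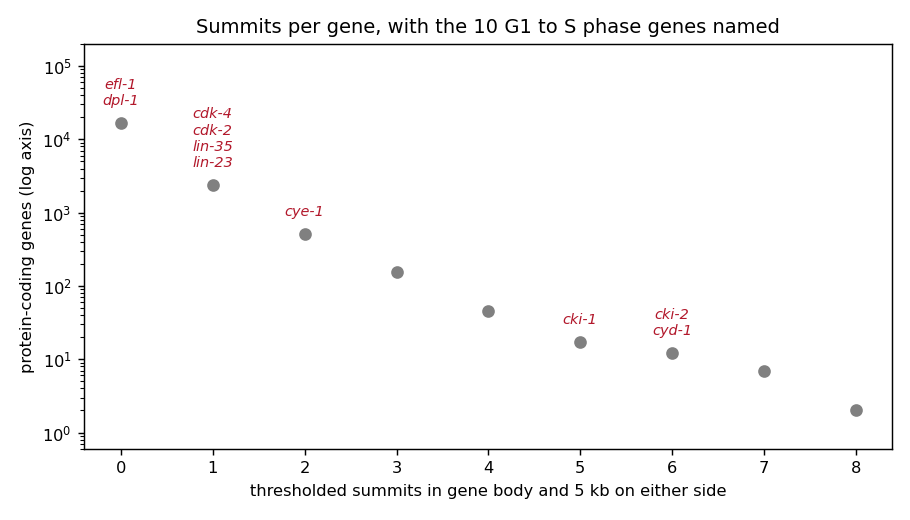
Number of protein-coding genes (points, log axis) by the number of thresholded summits in gene body and 5 kb on either side. cki-2 and cyd-1 had 6 summits and cki-1 had 5, while efl-1 and dpl-1 had 0.

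The inhibitors were examined first. cki-1 and cki-2 encode related inhibitors of cyclin-dependent kinases of the p27 type and lie in tandem on the plus strand of chromosome II, cki-1 (WBGene00000516) from 7811240 to 7812105 and cki-2 (WBGene00000517) from 7816499 to 7820281. Together they had 7 peaks over 8533 bp: 1 upstream of cki-1, 4 in the stretch between the 2 genes and 2 inside cki-2. Most of them lie in both windows, so 5 count for cki-1 and 6 for cki-2, and which gene a peak between them acts on was not tested.

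The strongest of them, with its summit at 7813437, had a signal of 615 and ranked 15 in the series; it ranked 17 in replicate 1 with a signal of 321 and 17 in replicate 2 with a signal of 303. It lay 2197 bp downstream of the 5′ end of cki-1 and 3062 bp upstream of that of cki-2, in the exon of T05A6.8, a short noncoding RNA gene on the same strand. The next, at 7814409, had a signal of 452 and ranked 32; in replicate 1 its signal was 292 (rank 20) and in replicate 2 160.04 (rank 63). This summit lay in no annotated gene, 2090 bp upstream of cki-2. Both replicates placed the highest point of the locus in the gap between the genes, outside either promoter window. The second highest was the peak at 7814409 in replicate 1, while in replicate 2 the cki-1 promoter peak stood just above it.

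The promoter peak of cki-1, with its summit at 7810987, 253 bp before the 5′ end, had a signal of 417 and rank 40. It had a signal of 252 and rank 29 in replicate 1 and a signal of 164 and rank 61 in replicate 2. The promoter peak of cki-2 was at 7815627, 872 bp upstream of the 5′ end and in the exon of T05A6.19, another noncoding RNA gene, with a signal of 368 and rank 59; its signal was 224 in replicate 1 (rank 43) and 142 in replicate 2 (rank 92). All 4 of these peaks were among the 100 strongest of the series and among the 100 strongest of each replicate.

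The other 3 peaks of the locus were weaker. That at 7812435, 330 bp past the 3′ end of cki-1, had a signal of 142, a rank of 411 and ranks of 491 and 427 in replicates 1 and 2. Inside cki-2, the peak in intron 4 of 6 at 7817737 had a signal of 71.1 and ranked 1201; it ranked 793 in replicate 1 and 3326 in replicate 2, which puts it among the 1861 strongest of replicate 1 alone. The peak in intron 6 at 7819520 had a signal of 73.3 and ranked 1145, with ranks of 1296 and 1023 in replicates 1 and 2. The inhibitor locus thus held 4 peaks with signals of 368 to 615, all before the 5′ end of cki-2, and 3 with signals of 71.1 to 142.

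Neighbouring summits in this locus were 972 to 2110 bp apart, against a median gap of 19502 bp between neighbouring nuclear summits of the series. Over the nuclear genome, 8 summits, that upstream of cki-1 included, began a 10 kb stretch with at least 7 summits. The others were on chromosome V, with 6, some of them in the same stretch, and on chromosome I, with 1. Weaker regions of the series list at the locus had signals of up to 44.7, that region being 1464 bp upstream of cki-1 with rank 2327. A region of signal 26.6 lay 136 bp upstream of the cki-2 5′ end itself, with rank 5676.

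**Figure D2:**
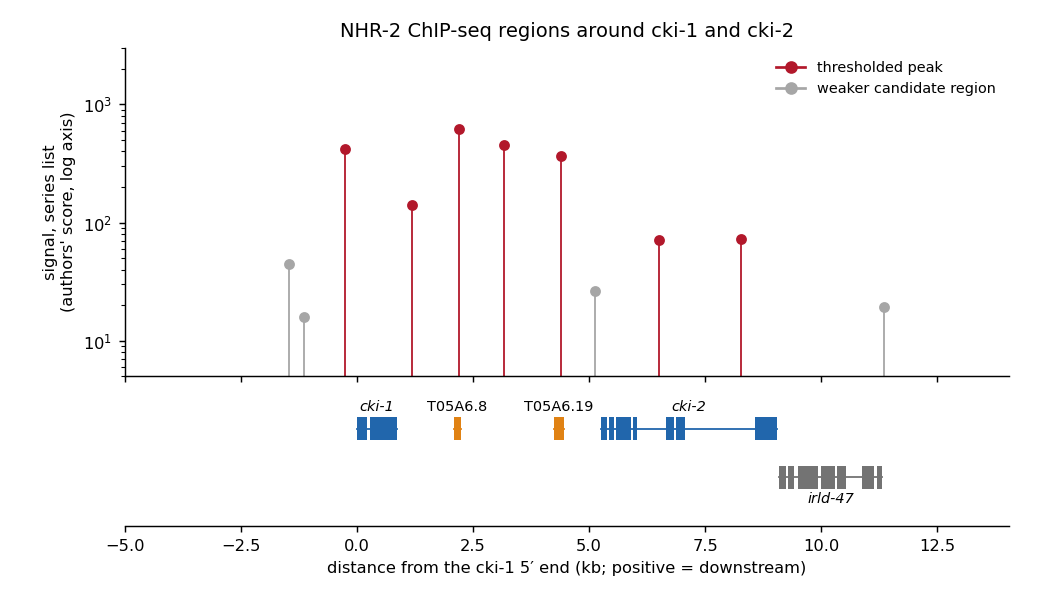
Signal (log axis) of regions of the series list by distance of the summit from the cki-1 5′ end, with exons of cki-1 and cki-2 in blue, of the 2 noncoding RNA genes that hold a summit in orange and of irld-47 in grey; vertical lines only guide the eye. The 4 strongest peaks, with signals of 368 to 615, lie between 253 bp before the cki-1 5′ end and 4387 bp after it.

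Cyclin D was next. cyd-1 (WBGene00000870) encodes the worm's D-type cyclin and spans 12980591 to 12993117 on the plus strand of chromosome II. It had 6 peaks, of which 1 was upstream, 4 were in introns and 1 lay just past the 3′ end; 0 were in its promoter window. The upstream peak, at 12978868 and 1723 bp from the 5′ end, was in no annotated gene and had a signal of 574, rank 17 in the series. It had a signal of 340.2 and rank 14 in replicate 1, and a signal of 236 and rank 26 in replicate 2. In replicate 1 it thus ranked above the strongest cki peak, which was at 17, and in replicate 2 below it, so that the order of the 2 loci is not settled by these libraries.

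A second strong peak lay in intron 2 of 6, at 12986026 and 5435 bp downstream of the 5′ end. It had rank 38 and a signal of 430.4. Its signal was 253 in replicate 1 (rank 28) and 175 in replicate 2 (rank 53). A second annotated cyd-1 transcript starts at 12988223, and this summit is 2197 bp upstream of that start. In the same intron, the peak at 12984938 had a signal of 92.6, with ranks of 766 and 1177 in replicates 1 and 2.

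The remaining cyd-1 peaks lay toward the 3′ end. In intron 5, summits at 12990354 and 12991403 had signals of 108 and 129; the first ranked 500 in replicate 1 and 944 in replicate 2, the second 711 and 346. They were the narrowest of the 19 peaks, 161 and 171 bp wide, against a median of 380 bp. The last, at 12993216, 99 bp past the 3′ end, had a signal of 122 and ranks of 559 and 550 in replicates 1 and 2. Among protein-coding genes, the 5′ end nearest to these 3 peaks was that of hphd-1, on the opposite strand, from 3355 to 6217 bp away. Counting the second cyd-1 transcript start, the intron 5 summits were nearer to cyd-1, at 2131 and 3180 bp, and the last peak, 4993 bp from that start, was still nearer to hphd-1. A noncoding RNA gene on the opposite strand, Y38F1A.12, lies in intron 5, from 8875 to 9058 bp downstream of the cyd-1 5′ end. Its 5′ end was nearer to the intron 5 summits than that of either gene. The window also held 11 weaker regions of the series list, the strongest with a signal of 49.8 in intron 2. A weak region of replicate 1 lay 332 bp upstream of the 5′ end, with rank 2160, and in replicate 2 the nearest one, 94 bp upstream, had rank 5168.

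**Figure D3:**
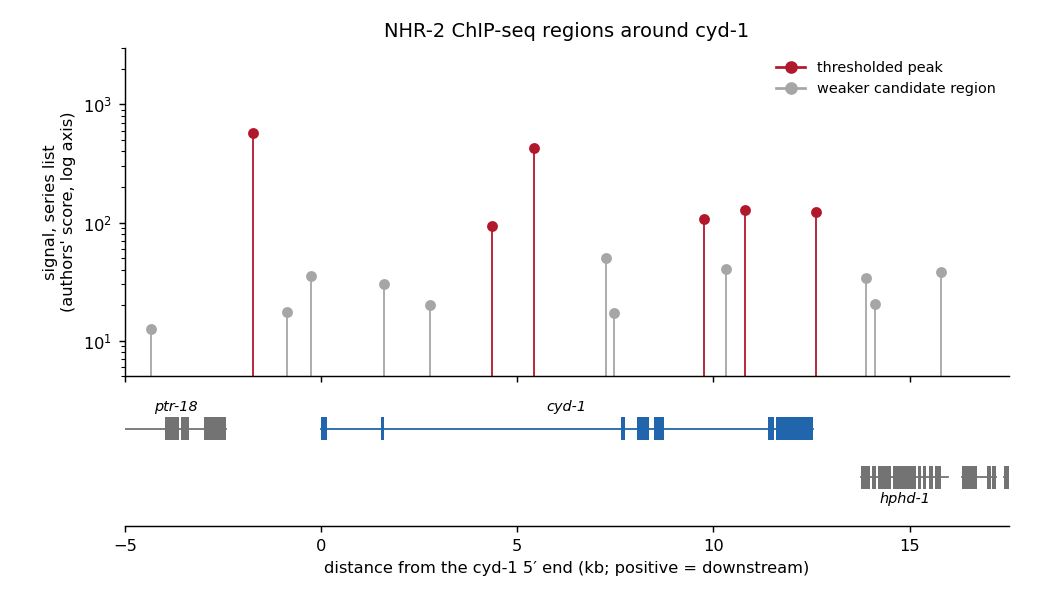
Signal (log axis) of regions of the series list by distance of the summit from the cyd-1 5′ end, with exons of all cyd-1 transcripts in blue and of neighbouring genes in grey. The 2 strongest peaks, of signal 574 and 430.4, lie 1723 bp upstream and 5435 bp downstream of the 5′ end, and weaker candidate regions lie between them.

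The kinases and cyclin E had fewer peaks, each led by a promoter summit. cdk-4 (WBGene00000406), which encodes the kinase partner of cyclin D, is on the minus strand of the X chromosome from 13515856 to 13518911. Its single peak had a summit at 13519239, 328 bp before the 5′ end. The signal was 136 and the rank 451. The replicates differed in where they placed it: signal 42.8 and rank 1082 in replicate 1, signal 96.2 and rank 208 in replicate 2.

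cye-1 (WBGene00000871), which encodes cyclin E, is on chromosome I from 6780799 to 6784397 on the plus strand. A peak at 6780344, 455 bp upstream of the 5′ end, had a signal of 354 and rank 69; in replicate 1 its signal was 185 (rank 73) and in replicate 2 170.5 (rank 56). In both replicates its summit was at the same base as in the series list. It lay between cye-1 and the divergent gene pqn-21, whose 5′ end was nearer, at 193 bp, so the 2 promoters cannot be told apart. A second peak in intron 2 of cye-1, 940 bp downstream of the 5′ end, had a signal of 82.8 and ranks of 1095 and 632 in replicates 1 and 2. The peak also covers a tRNA gene on the same strand, from 1004 to 1075 bp downstream of that 5′ end. In replicate 2 the summit was at 1008 bp, inside the tRNA gene.

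cdk-2 (WBGene00019362), which encodes the kinase partner of cyclin E, is on chromosome I from 3410013 to 3416368 on the plus strand. Its single peak had a summit at 3409858, 155 bp upstream of the 5′ end, the shortest such distance among the members. The signal was 177 and the rank 287, with signal 102.5 and rank 273 in replicate 1 and signal 74.5 and rank 323 in replicate 2. The series list put cdk-2 above cdk-4, as did replicate 1, while replicate 2 put cdk-4 above cdk-2, so the order of those neighbours changed between the replicates.

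The retinoblastoma and E2F branch had no peak that was nearest to its own genes. lin-35 (WBGene00003020), the worm's retinoblastoma-like gene, is on chromosome I from 5807709 to 5815637 on the plus strand. The peak in its window, with a summit at 5820614 and a signal of 1638 (rank 3; rank 3 in replicate 1 and rank 4 in replicate 2), was in intron 2 of nhr-2, 4977 bp past the 3′ end of lin-35 and 23 bp inside the edge of the window. nhr-2 is the gene of the immunoprecipitated factor and starts 13425 bp from the 5′ end of lin-35. Just outside the edge were 3 more peaks nearest to nhr-2, with signals of 1111, 234 and 2151. The transgene may add copies of sequence there, and the part of that in these signals was not tested.

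At lin-35 itself the lists differed. Replicate 1 had a region 200 bp before the 5′ end, of signal 49.4 and rank 872 and so within its 1861 strongest. The series list and replicate 2 had none there: the region nearest to the lin-35 5′ end was in both the one in the nhr-2 intron, 12905 and 12915 bp away. It was found in 1 library alone, and lin-35 thus had 0 thresholded peaks other than that of nhr-2.

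efl-1 (WBGene00001161), an E2F gene, is on the minus strand of chromosome V from 16958590 to 16965675, and had 0 thresholded peaks. Its strongest series region was in the promoter, 193 bp before the 5′ end; its signal was 46.3 and its rank 2207, below the lowest thresholded signal of 51.6. It ranked 1982 in replicate 1 and 16135 in replicate 2, where its signal was 27.8 and 12.6. dpl-1 (WBGene00001061), the DP partner of E2F, is on the plus strand of chromosome II from 9169910 to 9172565 and also had 0. Its strongest region, with a signal of 39.6, was 42 bp from the 5′ end of sec-5, a neighbour. The region nearest its own 5′ end, 87 bp upstream and in an intron of T23G7.2 on the other strand, had a signal of 15.7 and rank 19209. Neither gene had a candidate region within the 1861 strongest of any list.

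lin-23 (WBGene00003009), the F-box subunit of an SCF ubiquitin ligase, is on the plus strand of chromosome II from 6371303 to 6374776. Its peak, 937 bp upstream of the 5′ end at 6370366, had the lowest signal of the 19, 66.9, with rank 1296. Replicate 1 had it at signal 42.1 and rank 1110. Replicate 2 had no region that overlapped it, and its nearest, 755 bp away and closer to the gene, ranked 20810. Of all nuclear peaks, 13 lacked an overlapping region in at least 1 replicate, and lin-23 had the only one among the members.

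**Figure D4:**
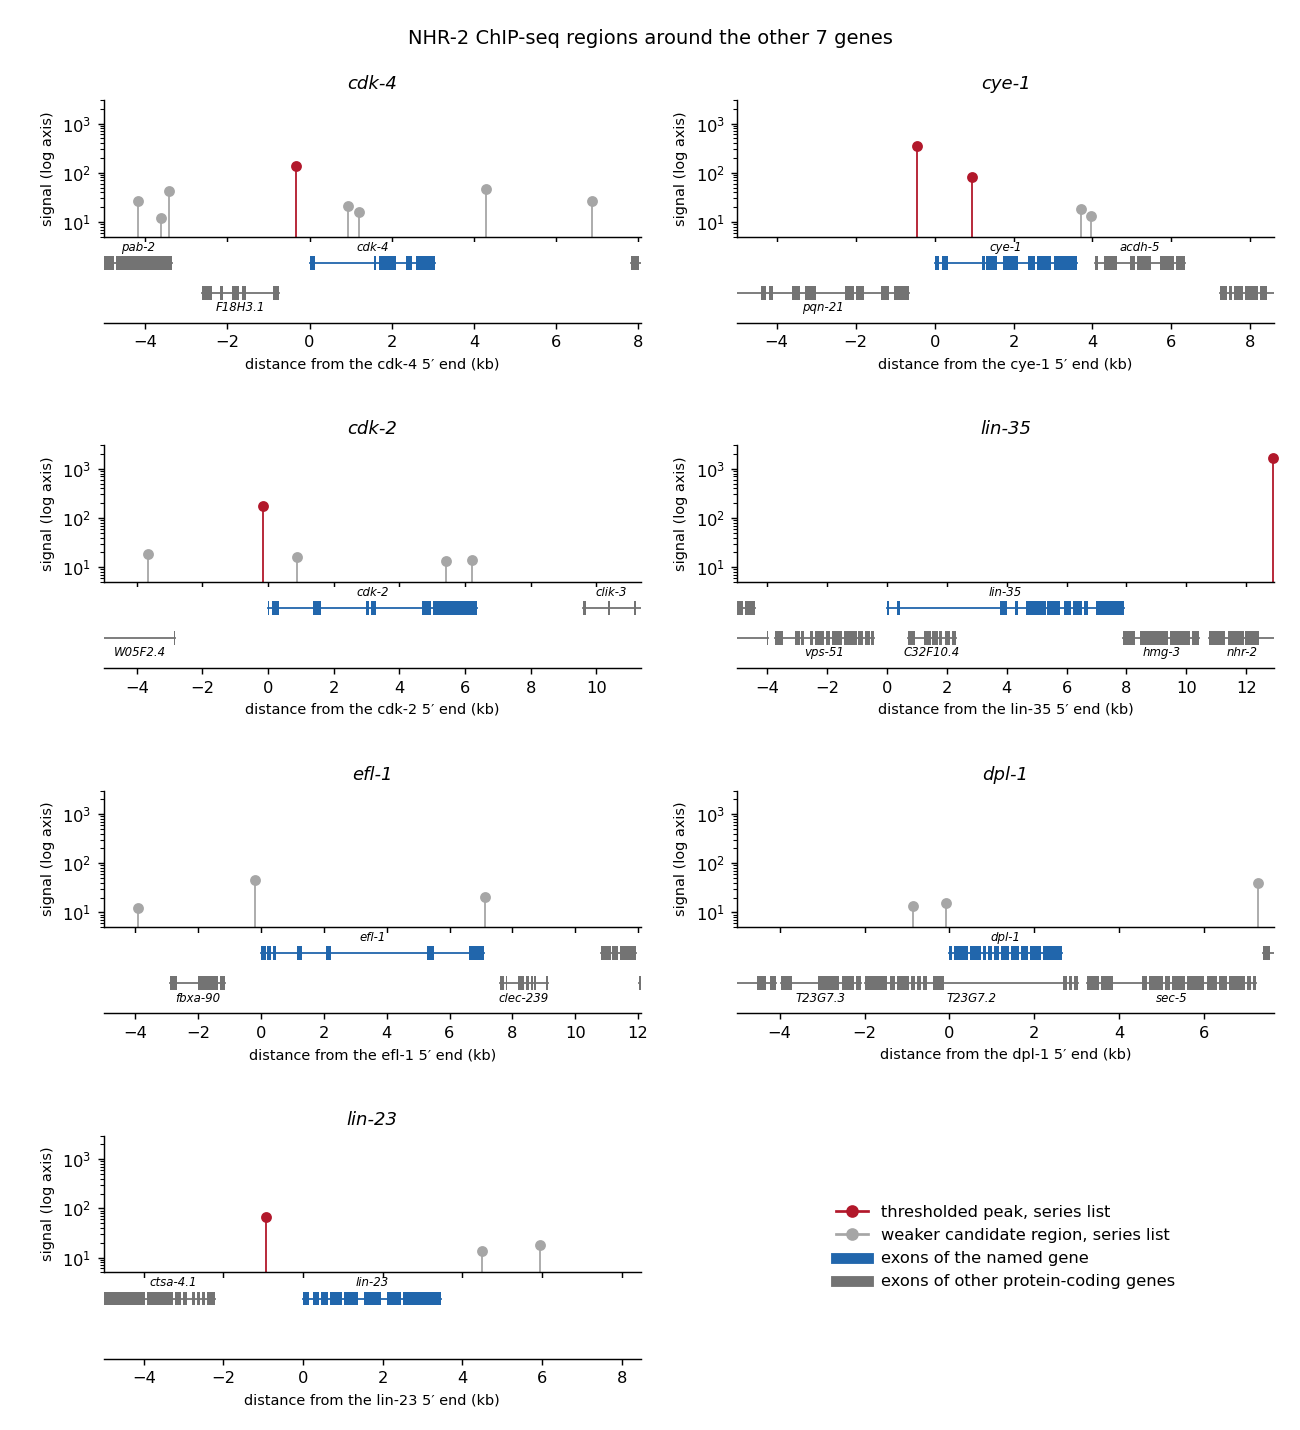
Signal (log axis) of regions of the series list by distance of the summit from the 5′ end of each of the other 7 genes, with exons of the named gene in blue and of its neighbours in grey. cdk-4, cye-1, cdk-2 and lin-23 have a peak within 1000 bp upstream, the peak in the lin-35 window is at its right edge in nhr-2, and efl-1 and dpl-1 have weaker regions alone.

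Leaving aside the nhr-2 intron peak in the lin-35 window, the order by the strongest peak in the window was cki-1 and cki-2 with 615, a peak they share, cyd-1 with 574, cye-1 with 354, cdk-2 with 177, cdk-4 with 136 and lin-23 with 66.9. The cye-1 peak was nearer to the 5′ end of pqn-21, and the strongest peak nearest to that of cye-1 itself had a signal of 82.8. Of the 19 peaks, 17 were among the 1861 strongest regions of both replicates (89.5%), against 1258 of the 1843 nuclear peaks (68.3%); the exceptions were the lin-23 peak and that in intron 4 of cki-2. For the 8 member peaks that ranked in the first 100, no replicate summit was more than 13 bp from the series summit. Over the 18 member peaks found in both replicates the replicate summits were a median of 18 bp apart, against 29 bp over 1830 nuclear peaks. Of the 19 member peaks, 15 were above the median signal of the nuclear peaks. The genes were chosen partly on signal, and the values are not set against each other further.

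**Figure D5:**
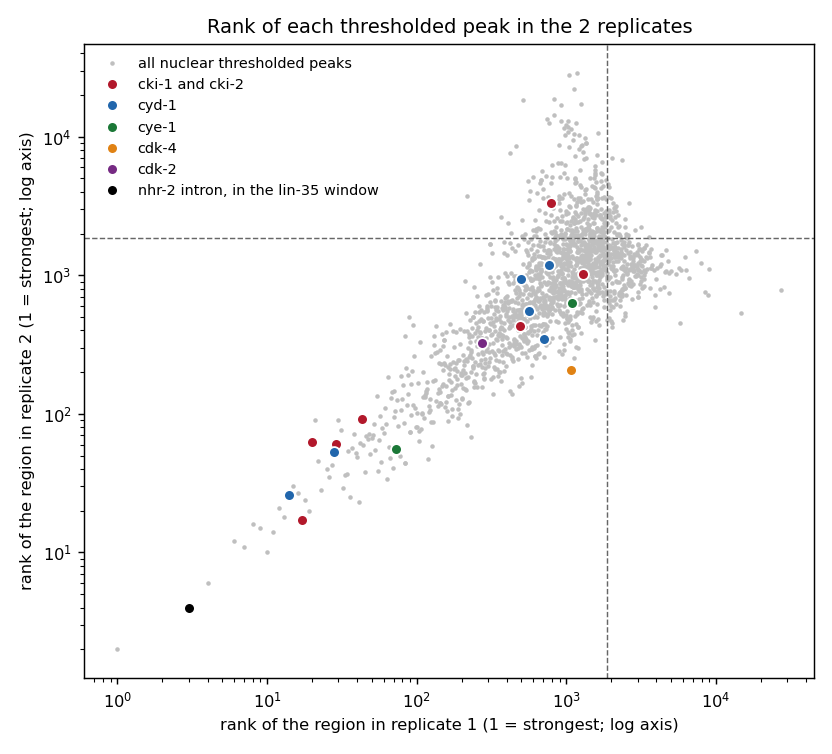
Rank in replicate 1 against rank in replicate 2 (log axes) for nuclear thresholded peaks found in both replicates, with the members in colour; dashed lines mark rank 1861, and lin-23 is not drawn because replicate 2 had no region there. The nhr-2 intron peak has ranks 3 and 4, and the member peaks farthest from equal ranks are those of cdk-4, with 1082 and 208, and of intron 4 of cki-2, with 793 and 3326.

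The annotation at the summits follows from their position, which the choice of genes used, and is given as a description. Of the 19 summits, 9 were in no annotated gene, 8 in introns of protein-coding genes, 2 in exons of noncoding RNA genes and 0 in exons of protein-coding genes. Among the 5′ ends of protein-coding genes, that of a member was the nearest for 14 of them. Noncoding genes, some of which start nearer to these summits, were not counted. The same shares over all nuclear peaks are not given here, so nothing particular to the members is read from these counts. Median GC content within 75 bp of the summit was 46.4% for the members and 45.0% over all nuclear peaks. Within the cki locus it ran from 33.1% at 7812435 to 55.6% at the cki-1 promoter peak.

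The words under the summits were searched on both strands within 75 bp. AGGTCA was present at 5 of the 19 member summits (26.3%), against 318 of 1843 nuclear peaks (17.3%, 95% exact Clopper-Pearson interval 15.6 to 19.1%), 3.92% of 28139 weaker series regions and 4.56% of the 151 bases upstream of the 5′ ends of all protein-coding genes. The interval is that of the nuclear peaks, and none is given for the 19 member summits, which are few. Their genes were chosen partly on signal, so no enrichment is read from these shares. The 5 were the cki-1 promoter peak, the strongest peak between cki-1 and cki-2, the strong cyd-1 intron peak, the cye-1 promoter peak and the nhr-2 intron peak in the lin-35 window, where it occurred at 2 positions. All of these peaks had a signal of over 350. The word lay 5.5 bp from the summit at cye-1, 20.5 bp at the peak between the cki genes, 34.5 bp at the cki-1 promoter and 44.5 bp in the cyd-1 intron, measured from the centre of the word. The peaks upstream of cyd-1 and in the middle of the cki gap at 7814409, with signals of 574 and 452, held no AGGTCA in this window. Nor did the cki-2 promoter peak, with a signal of 368.

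All 6 occurrences were on the reverse strand of the genome. G preceded the word at 3 of the 6, those in the printed sequences, where it reads TGACCTC on the strand shown, and at 115 of 334 occurrences over all nuclear peaks (34.4%). At the strongest peak between cki-1 and cki-2 the word overlapped a GAGAGA, and this was the only GAGAGA among the 19 summits, against 552 of the 1843 nuclear peaks (30.0%). AGTTCA, a related word, was at 1 member summit, that of cye-1, and at 5.59% of nuclear peaks.

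The E-box word CAGGTG was at 4 member summits, the cki-2 promoter peak and 3 peaks in cyd-1 introns, or 21.1%, against 14.4% of nuclear peaks, 3.78% of weaker regions and 4.55% of upstream sequences. In the intron 5 peak of cyd-1 at 12990354 its centre was 1.5 bp from the summit. CAGCTG was at 2, the cdk-4 promoter peak and the intron 5 peak at 12991403, and at 6.35% of nuclear peaks. CACGTG was at 0 of the 19 and at 4.88% of nuclear peaks. The 4 words of the E2F consensus (TTTCCCGC, TTTCGCGC, TTTGCCGC and TTTGGCGC) were searched as well, since E2F factors control cyclin E genes in flies and mammals. Only the cye-1 promoter peak held any, TTTCGCGC and TTTGCCGC, 51.5 and 70.5 bp from the summit; any of the 4 was present at 4.72% of nuclear peaks and 2.37% of upstream sequences. A word match is a description of the sequence and not a site.

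Other genes of the pathway were taken from 4 lists of 55 genes in all, which share no peak with the 10. Of these, 12 had a peak in gene body and 5 kb on either side (21.8%, against 15.7% of all genes) and 7 in the promoter window (12.7%, against 4.16%). Among 10 genes of SCF ligases and other degradation of G1 regulators, 2 had a peak: fzr-1, the Cdh1-type partner of the anaphase-promoting complex, with 3 peaks, the strongest of signal 281 at 172 bp upstream, and cdc-14, a phosphatase that restrains division in the worm, with 52.1 at 373 bp upstream. The cullin genes and the Skp1-related genes of the list had 0.

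Among 14 other cyclins, kinases and phosphatases, 2 had a peak. cdc-25.2, a phosphatase that activates cyclin-dependent kinases, had 8, the strongest with a signal of 228, and cya-1, an A-type cyclin, had 2, the stronger with 138 and nearest to ZK512.1. Among 11 partners of E2F, 3 had one: efl-3, an E2F family gene, with 4 peaks led by 268 (nearest to fdgt-2), hpl-2, a heterochromatin protein, with 119 (nearest to tasp-1), and lin-36 with 71.8 in its promoter. Among 20 genes of replication licensing and S phase, 5 had one. pcn-1, the sliding clamp PCNA, had a promoter peak of 90.2 and rnr-2, a ribonucleotide reductase subunit, one of 81.0. The peaks in the windows of orc-4, with 90.9, and orc-2, with 72.4, subunits of the origin recognition complex, were nearer to emg-1 and cap-2. The minichromosome maintenance genes had 0. The highest signal among these 20 genes was thus 90.9.

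The genes most like cki-2 and cyd-1, by having at least 6 peaks in gene body and 5 kb on either side and none in common with the 10, numbered 19. First by number of peaks and then by summed signal were cdc-25.2 with 8 peaks, unc-5, a netrin receptor, with 8, lsy-22 with 7, vab-1, an Eph receptor, with 7 and swah-1 with 7. The windows of these 5 genes were 23.4 to 42.7 kb long, against 13.8 kb for cki-2 and 22.5 kb for cyd-1. Windows as short as that of cki-2 were present among the 19, with 6 peaks in 13.6 kb at ham-1, in 13.6 kb at ceh-27 and in 12.5 kb at T02E9.5, genes named after their values were seen. The summed signal of the window was 1994 for cki-1, 1721 for cki-2 and 1456 for cyd-1, and from 875 to 1579 in those 5 genes. The peaks between cki-1 and cki-2 count in both of their sums, which are thus largely the same signal. The members were chosen partly on signal and those 5 genes by peak number, so nothing is read from the difference. The order rests on the thresholded list of both replicates together.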

How the data were processed

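NHR-2 ChIP-seq had 2 libraries, biological replicates of 1 group. The authors deposited region lists on ce11, with a signal and a −log10 q value per region. Per the texts deposited with the libraries, candidate lists were derived from alignments and a further file, also a source of their control-normalized tracks, and the thresholded list from the candidate lists. The aligner, caller and threshold are not stated there. The lists hold no read counts, so depth is unknown. Nearly every peak shared the highest −log10 q value, 1832 of 1861, and all 19 member peaks were among these. The q value thus did not set the members apart, and ranks were by signal.

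Genes came from Ensembl release 115 (WBcel235) and bases from RefSeq WBcel235; coordinates are 1-based. Overlap with a replicate region needed 1 bp. The nearest 5′ end was sought among protein-coding genes alone. Intervals cover counting error only. Python 3.11.15, pandas 2.3.3 and SciPy 1.17.1 were used, tested on simulated data. Members, lists and words were chosen with earlier results of these data known; the E2F words, and the neighbours named at weaker regions, were added after values were seen. The text names all 10 members, the gene nearest to or holding each peak, up to 4 genes per list by signal, and the 5 most similar genes. Nothing was tested, since there is 1 group.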

Additional observations from a re-analysis of the deposited data

How the results depend on the processing

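With other windows (2 kb or 10 kb flanks, 5 kb around the 5′ end, nearest 5′ end), the strongest 930 peaks or 1 replicate alone, 7 or 8 of the members had a peak and 14 to 24 distinct peaks were counted. Members with a promoter summit numbered 4 to 7 over narrower and wider promoters, other transcript starts, the strongest 930 peaks and single replicates. The share of all genes with a promoter summit was not computed under these settings, so nothing is read from that range. Counts per gene moved with the window. With 2 kb flanks cki-1 and cki-2 had 3 peaks each, around the 5′ end cyd-1 had 2, and by nearest 5′ end cki-1 had 3, cki-2 had 4, cyd-1 had 3 and cye-1 had 1. lin-35 had 0 under these 3 windows, 4 with 10 kb flanks and 3 without replicate 2, and cye-1 had 1 with the strongest 930 peaks. The lin-35 peaks with 10 kb flanks were all nearest to nhr-2. Of the 3 without replicate 2, only the region 200 bp before the lin-35 5′ end was outside nhr-2. Leaving out replicate 1 gave 7 members with a peak and leaving out replicate 2 gave 8. The member lost without replicate 1 was lin-23, which also had 0 with the strongest 930 peaks. cdk-4 had 2 without replicate 1 and 3 with 10 kb flanks, where the added peaks were nearest to pab-2. The share of all genes with a peak was 9.65% with 2 kb flanks, 25.08% with 10 kb flanks, 13.0% around the 5′ end, 6.46% by nearest 5′ end and 7.75% with the strongest 930 peaks, and 15.4 to 17.0% with 1 replicate left out; these follow from window size and peak number. The median member signal was 354 with the strongest 930 peaks, which leaves out the weaker ones. It was not computed for single replicates, whose signal has its own scale. Without the nhr-2 intron peak, an alternative chosen after seeing the data, 7 members, 18 peaks and a median of 139 remained, and AGGTCA was at 4 of 18. Within 50 bp and within 100 bp of the summit, AGGTCA was at 26.3% of member peaks both times, against 13.1% and 21.0% of nuclear peaks. Anywhere in the peak it was at 31.6%, against 25.7%. Among the strongest 930 regions of both replicates were 12 of the 19 member peaks, against 17 among the strongest 1861. The count over all nuclear peaks was not made for the strongest 930, so nothing is read from the 12. No paired analysis was possible because there is 1 group. Depth is not given, so a missing region cannot be told apart from one under the limit of detection.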
